A study of Brassica rapa with 30 samples.

Results

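The 132 genes described here were those of Brassica rapa whose transcripts were raised after 1, 20 and 40 days of cold in both cultivars studied and were back near their starting level after 10 days of renewed warmth. Plants of Chiifu, a cultivar with the label late flowering, and of LP08, with the label early flowering, were grown for 3 weeks in a greenhouse and taken whole for RNA-seq. Each cultivar was sampled before cold (NV), in the cold on day 1 (V1), day 20 (V20) and day 40 (V40), and 10 days after 40 days of cold had ended (V40T10), with 3 libraries for each of these 10 groups and 30 in all. The labels give no allele, transgene or agent, and they do not say whether a group's 3 libraries are separate plants, so a p-value here reflects variation among libraries that may be technical only. The samples analysed here include no untreated plants as old as those from the cold, so treatment and age cannot be told apart in a comparison with NV. Nor can time in the cold and age be told apart in a comparison between times in the cold.

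Members were chosen on measured values. For each cultivar and treatment R was the log2 ratio of the mean level plus 1 CPM (count scaled to a fixed library size) to the NV level plus 1, so R = 1 is a doubling at high levels and more than a doubling at low ones. A member had R of at least 1 at V1, V20 and V40 and R between -0.7 and 0.7 at V40T10, in both cultivars. At low levels the added 1 CPM also lets a larger plain ratio at V40T10 stay within these limits. Of the 41018 rows with IDs beginning with Bra, 767 passed the cold thresholds in Chiifu, 530 in LP08 and 312 in both, and 133 of these also passed the warm threshold in both. The rule left out 2 IDs by name, of which 1 had passed, and the limit of 150 members was not reached. Because these values chose the members, each level set against NV, and V40T10 set against V40, is given as a description with no test.

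Cold acclimation is the process by which plants of temperate climates become more tolerant of frost. Within hours of cooling, transcription factors of the CBF/DREB family raise cold-regulated (COR) genes, which encode dehydrins and other protective proteins, and on return to warmth the plants deacclimate. Prolonged cold also makes many Brassica plants competent to flower, a slower process called vernalization. The reference names none of the 132 IDs, so the genes are given by ID and without a role, and neither the COR genes nor any other pathway list could be matched to them. In RNA of whole plants, fewer cells of a type and less RNA per cell cannot be told apart.

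Depth was 16926920 to 26595834 counts on genes per library, and a level of 0 allowed up to 0.0964 to 0.209 CPM by counting error alone. The 3 Chiifu NV libraries stood apart from each other. Their pairwise correlations over genes were 0.890 to 0.948, against 0.976 or more in every other group, and the median SD of the members was 39.4% of the mean in Chiifu NV and 9.18 to 19.4% in the other 9 groups. All Chiifu values of R share this baseline. Without each Chiifu NV library in turn, 123, 116 and 114 of the 132 members still met the thresholds.

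Together the 132 genes stood at several times their starting level after 1 day of cold and were back near it 10 days after the cold ended. In Chiifu their summed level was 1287, 1490 and 1705 CPM in the 3 NV libraries and 12418, 11911 and 11752 CPM in the V1 libraries. It stood at 8813, 8624 and 8221 CPM at V20, at 8477, 8882 and 8596 CPM at V40, and at 1635, 1633 and 1591 CPM at V40T10. The cold libraries of Chiifu were all far above those from warmth, and the highest 3 were those of V1.

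In LP08 the sum was 1672, 1724 and 1801 CPM at NV and 11178, 9862 and 9632 CPM at V1. It was 7610.5, 7996 and 7105 CPM at V20 and 6354, 5853 and 6046 CPM at V40, and V40T10 had 1641, 1783 and 1554 CPM. In LP08 the 3 times in the cold did not overlap and their order was V1, V20, V40, whereas V20 and V40 overlapped in Chiifu. At V40 every LP08 library was below every Chiifu library. As a share of all counts on Bra rows, the members took 0.139% at NV and 1.21% at V1 in Chiifu, and 0.154% and 0.978% in LP08. CPM are not corrected for gene length, and by counts the sum was led by a few genes: Bra040927 held 15.7% of it over the cold groups, and the highest 10 genes held 45.4%.

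**Figure D1:**
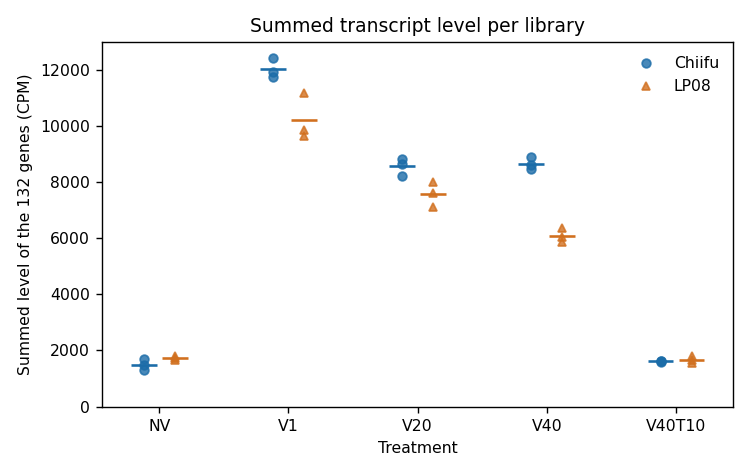
The summed level of the 132 genes in CPM (y axis, from 0) is plotted for each library by treatment (x axis), with Chiifu as circles, LP08 as triangles and the mean of each 3 libraries as a short line. The V1 libraries sit highest, between 9632 and 12418 CPM, and the NV and V40T10 libraries lie between 1287 and 1801 CPM in both cultivars.

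Single genes rose in the cold and fell back at very different heights, and many did not follow the order of the sum within the cold. The median level of a member was 3.26 CPM at NV in Chiifu, 29.1 CPM at V1, 27.1 at V20, 27.0 at V40 and 4.14 at V40T10. In LP08 it was 4.33 CPM at NV, 25 at V1, 27.2 at V20, 19.9 at V40 and 3.85 at V40T10. At NV 37 members were below 1 CPM in Chiifu and 31 in LP08, so part of the set was at a low level in plants not exposed to cold. Few were undetected: 2 members had 0 counts in the 3 NV libraries of Chiifu and 1 in those of LP08. None had 0 counts in all 6 NV libraries.

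The median R in Chiifu was 2.18 at V1, with a range of 1.07 to 8.69, 2.09 at V20 and 2.02 at V40, and in LP08 it was 1.79 at V1, with a range of 1.03 to 8.12, 1.95 at V20 and 1.61 at V40. The rule required at least 1 here. Of all Bra rows 5.69, 3.99 and 4.35% reached that level in Chiifu after 1, 20 and 40 days, and 5.34, 4.35 and 3.29% in LP08. At R of 3 or more there were 35, 29 and 27 members in Chiifu at these times, and 25, 24 and 17 in LP08. The smallest of a member's 6 cold values of R had a median of 1.35. It was 3 or more in 10 genes and below 1.2 in 48, and in 59 members it lay at V40 of LP08.

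At V40T10 the median R was 0.12 in Chiifu and -0.04 in LP08, within limits that 82.4% of all Bra rows met in Chiifu and 81.9% in LP08. Of the rise at V40, a median of 1.84% was left in Chiifu and -1.10% in LP08. At least 20% of it was left in 13 members in Chiifu and in 12 in LP08, the most being 47.6% and 42.4%, and 43 and 72 members stood below NV.

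Group means could hide overlap between libraries, so the single libraries are described here. The rule chose the members by the means of these same libraries. Their separation was thus largely set in advance and is no separate support. In Chiifu, the 9 cold libraries were all above the 3 NV libraries in 131 members, and in LP08 in all 132, an arrangement that 8.14% and 8.32% of all Bra rows also had, and 4.13% in both cultivars. The exception was Bra008912, at 32.0, 52.2 and 178 CPM in Chiifu NV against 169 to 274 CPM in the cold, where the third NV library reached into the cold values. The 9 cold libraries were above the 3 V40T10 libraries in 132 members in Chiifu and 131 in LP08, beside 14.8% and 14.7% of all Bra rows.

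**Figure D2:**
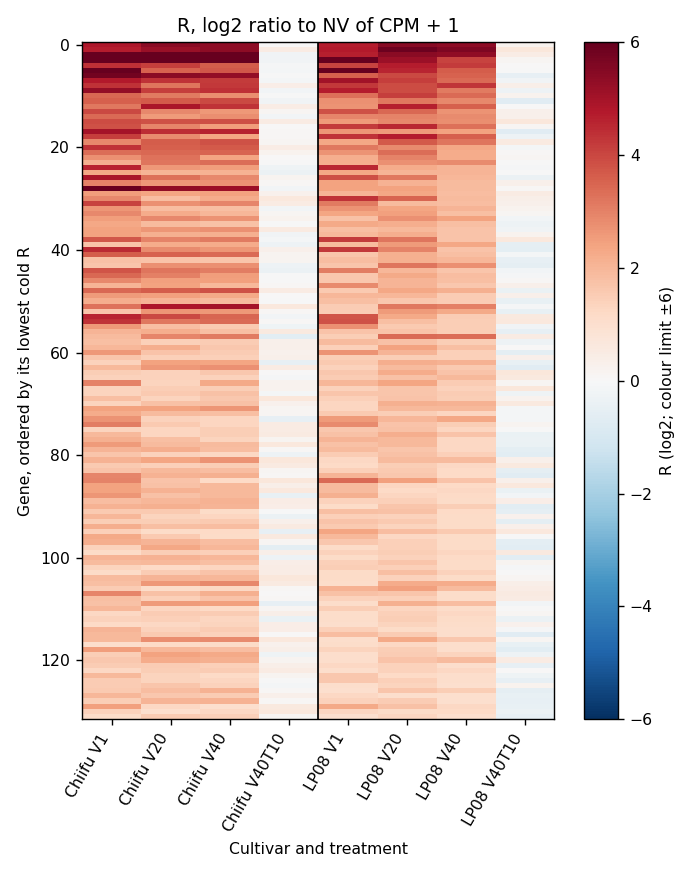
Each line is 1 of the 132 genes, ordered from top to bottom by its lowest cold R, and each column is a treatment of Chiifu (left of the black line) or LP08 (right). Colour gives R (log2 ratio to NV of CPM plus 1, red above 0 and blue below, colours limited at 6 on either side): the V1, V20 and V40 columns are red throughout and the V40T10 columns are near white, as the thresholds require, and most genes lie near the lower end of the red scale.

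Near the thresholds the choice of members was narrow. Bra031348 was kept with a lowest cold R of 1.00 and Bra040509 with 1.01, while Bra027588 at 0.999 and Bra034416 at 0.995 fell outside. On the warm side Bra029407 was kept with an R of -0.70 in LP08, and Bra032023 was left out at 0.7002 in Chiifu. In Bra040509 the Chiifu libraries held 53.5, 53.4 and 25.8 CPM at NV and 89.9, 91.5 and 88.4 CPM at V20, groups that did not overlap.

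Of the 6 genes with the highest lowest cold R, 5 had at most 3.69 CPM in every library from warmth, and Bra019875 had at most 5.02 CPM. Bra033648 had 0, 0.138 and 0 CPM in the Chiifu NV libraries, 34.6, 26.4 and 26.4 CPM at V1, 46.5, 46.4 and 38.2 CPM at V20, 41.7, 46.5 and 39.4 CPM at V40 and 0, 0.161 and 0 CPM at V40T10. In LP08 it had 0.157, 0.0525 and 0.0492 CPM at NV, 24.7, 31.4 and 27.5 CPM at V1, 50.5, 48.3 and 41.6 CPM at V20, 48.4, 35.9 and 47.0 CPM at V40 and 0.243, 0.418 and 0.0506 CPM at V40T10. The cultivars gave nearly the same course, with V1 lowest of the 3 cold times. From V1 to V20 the log2 change was 0.58 (SE 0.24, adjusted p = 0.0615 by edgeR) in Chiifu, which did not pass 0.05, and 0.74 (SE 0.24, adjusted p = 0.0174 by edgeR) in LP08, which did.

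Bra008661 showed the highest R of all members, and its time course differed from that of Bra033648. In Chiifu it had 0, 0.276 and 0.253 CPM at NV, 449.7, 521 and 487 CPM at V1, 119, 119 and 94.4 CPM at V20, 248, 279 and 246 CPM at V40 and 0, 0.0321 and 0.038 CPM at V40T10. In LP08 it had no count in any NV library, 321, 281 and 231 CPM at V1, 32.5, 63.1 and 8.16 CPM at V20, 19.5, 17.0 and 9.60 CPM at V40 and 0, 0.209 and 0 CPM at V40T10. V1 was highest in both cultivars without overlap, and V40 was above V20 in Chiifu but not in LP08. The V20 to V40 changes did not pass, at 1.22 in Chiifu (SE 0.42, adjusted p = 0.273 by edgeR) and -1.16 in LP08 (SE 0.43, adjusted p = 0.188 by edgeR). Nor did Bra008661 pass for the difference between these changes (-2.38, SE 0.60, adjusted p = 0.157 by edgeR). Against a floor of 3 counts over the NV group, its V1 level in LP08 was at least 5346-fold higher, and in Chiifu the V1 level was 2835-fold that of NV (95% counting interval 1541 to 5913).

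The fall of Bra008661 from V1 to V20 passed the test in both cultivars. It was -2.14 on the log2 scale in Chiifu (SE 0.43, adjusted p = 0.000471 by edgeR). It was -3.01 in LP08 (SE 0.44, adjusted p = 1.52e-05 by edgeR), and without the second V20 library of LP08, the one at 63.1 CPM, it was -3.77.

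Bra019875 and Bra038832 rose from V1 to V20 in LP08, the latter by 0.76 on the log2 scale (SE 0.23, adjusted p = 0.0139 by edgeR), and neither change passed in Chiifu. Bra019875 had 1.73, 2.53 and 3.86 CPM at NV in Chiifu and 103, 90.4 and 93.7 CPM at V1, then 113 to 155 CPM at V20 and V40. In LP08 it went from 1.73, 2.05 and 2.02 CPM at NV to 69.0, 97.1 and 65.7 CPM at V1 and 182, 166 and 168 CPM at V20, a V20 against V1 change of 1.15 on the log2 scale (SE 0.22, adjusted p = 0.000172 by edgeR). Its V1 and V20 libraries did not overlap in either cultivar.

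Bra033928 fell between V1 and V20. In Chiifu it had 0.0479, 0.046 and 0.38 CPM at NV, 86.7, 91.0 and 90.6 CPM at V1, 14.2, 12.3 and 10.5 CPM at V20 and 12.4, 13.8 and 16.1 CPM at V40. In LP08 it had 0.366, 0.21 and 0.0492 CPM at NV, 107, 69.6 and 69.6 CPM at V1, 24.7, 30.7 and 27.1 CPM at V20 and 13.4, 14.3 and 14.4 CPM at V40. The cultivars overlapped at V1 and V40, and at V20 every LP08 library was above every Chiifu library. The fall from V1 to V20 was -2.86 on the log2 scale in Chiifu (SE 0.23, adjusted p = 3.10e-09 by edgeR) and -1.58 in LP08 (SE 0.22, adjusted p = 6.14e-06 by edgeR). Bra034595 lay between 11.3 and 34.8 CPM in all 18 cold libraries and at 0.368 CPM or less in all 12 from warmth. From V1 to V20 it rose by 0.72 in LP08 (SE 0.28, adjusted p = 0.0473 by edgeR), with overlap of libraries. The Chiifu change of -0.25 did not pass (SE 0.28, adjusted p = 0.532 by edgeR).

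**Figure D3:**
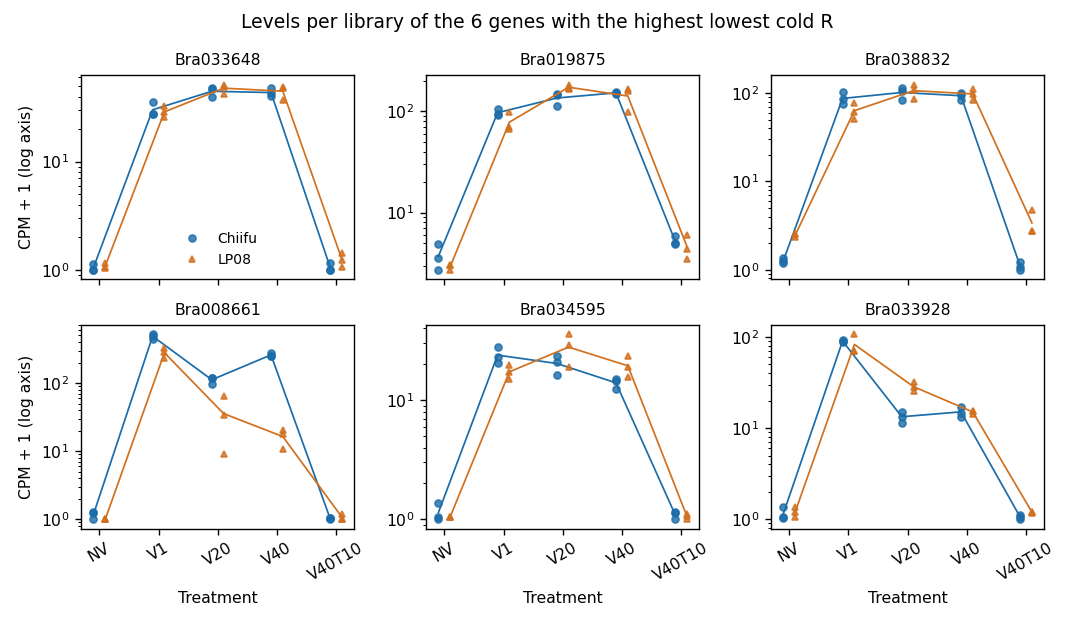
CPM plus 1 on a log axis (y) is plotted by treatment (x) for the 6 genes with the highest lowest cold R, 1 panel each; Chiifu libraries are circles, LP08 libraries triangles, and lines join the means of 3 libraries. All 6 are close to the bottom of the axis at NV and V40T10 or, for Bra019875, below 6 CPM there, while Bra008661 and Bra033928 fall from V1 to V20 in both cultivars.

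The 4 genes with the highest CPM in the cold, Bra040927, Bra039946, Bra007179 and Bra010693, were already detected at 12.4 CPM or more in every library from warmth. Bra040927 had 83.6, 82.6 and 269.7 CPM in Chiifu NV, 2192, 2098 and 1745 CPM at V1, 1367, 1291 and 1361 CPM at V20, 1283, 1268 and 1184 CPM at V40 and 102, 111 and 123 CPM at V40T10. The LP08 libraries held 215, 228 and 269.6 CPM at NV, 2228, 1839 and 2035 CPM at V1, 928, 1035 and 863 CPM at V20, 674, 734 and 833 CPM at V40 and 214, 237 and 183 CPM at V40T10. The third Chiifu NV library stood more than 3 times above the other two, at the LP08 level. The change from V1 to V20 was -1.11 on the log2 scale in LP08 (SE 0.27, adjusted p = 0.00226 by edgeR) and -0.59 in Chiifu (SE 0.27, adjusted p = 0.094 by edgeR), and only the first passed. The difference between these changes did not pass either (-0.53, SE 0.38, adjusted p = 0.539 by edgeR).

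Bra039946 declined at both steps in LP08. Its LP08 libraries held 19.3, 18.7 and 22.5 CPM at NV, 757, 651 and 642 CPM at V1, 389, 459.9 and 268 CPM at V20, 211, 239 and 219 CPM at V40 and 18.7, 20.7 and 12.4 CPM at V40T10. In Chiifu it had 31.6, 24.8 and 40.7 CPM at NV, 1016, 804 and 900.2 CPM at V1, 694, 669 and 685 CPM at V20, 605, 604 and 616 CPM at V40 and 28.2, 31.4 and 28.4 CPM at V40T10. In each cultivar the 3 cold times did not overlap. The LP08 changes were -0.88 from V1 to V20 (SE 0.18, adjusted p = 0.000445 by edgeR) and -0.74 from V20 to V40 (SE 0.18, adjusted p = 0.0278 by edgeR), and LP08 was lower than Chiifu at NV, V20, V40 and V40T10.

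Bra007179 and Bra007177, whose IDs are 2 apart, had similar profiles. Bra007179 had 939, 1060.4 and 1125 CPM at V1 in Chiifu and 497, 480.4 and 395 CPM at V20, and in LP08 1121, 902 and 731 CPM and then 186, 256 and 236 CPM. Bra007177 had 360.0, 417 and 391 CPM at V1 in Chiifu and 81.3, 117 and 104 CPM at V20, and in LP08 346, 327 and 289 CPM and then 69.4, 84.0 and 43.5 CPM. For both genes the V20 libraries lay wholly below the V1 libraries in both cultivars. Bra010693, the last of the 4, had 754, 635 and 637 CPM at V1 and 235, 251 and 209 CPM at V20 in Chiifu and 302, 217 and 299 CPM and then 145, 118 and 112 CPM in LP08, and it was lower in LP08 at all 5 treatments. The fall was -1.95 on the log2 scale for Bra007177 in Chiifu (SE 0.24, adjusted p = 1.04e-06 by edgeR) and -2.29 in LP08 (SE 0.24, adjusted p = 1.21e-07 by edgeR).

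Of the pairs of members with IDs at most 4 apart, Bra007177 and Bra007179 correlated at 0.96 over the 30 libraries, Bra034595 and Bra034596 at 0.87 and Bra034247 and Bra034251 at 0.81. Bra026143 and Bra026144 correlated at 0.10. These values share the libraries and the division into warm and cold that chose the genes, and whether such neighbours are near-identical copies that share reads was not tested.

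The members differed in when their mean in the cold was highest, which is described here with no test. By edgeR 56 members were called at no tested step within the cold in either cultivar, so many of these peak times are uncertain. In Chiifu the highest cold mean was at V1 in 77 members, at V20 in 30 and at V40 in 25. In LP08 it was at V1 in 55, at V20 in 72 and at V40 in 5. The peak fell at the same time in both cultivars in 79 genes, 51 of them at V1. A further 24 peaked at V1 in Chiifu and at V20 in LP08, and 22 at V40 in Chiifu and at V20 in LP08. The V1 level was at least 80% of the highest cold level in 99 members in Chiifu and in 84 in LP08, and below 50% of it in 10 and 13. The rule required a rise at V1, so genes that rise only later were left out in advance. No share of all rows was taken for these counts or for the peak times. The V40 level was a median of 81.0% of the highest in Chiifu and 72.2% in LP08.

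The step from 1 to 20 days of cold was tested in each cultivar, since its contrast takes no level from NV and the thresholds do not set its direction. The rule did hold R at 1 or more at V1, V20 and V40, which limits the changes a member could show. How far this shaped the members' shares here, from V20 to V40 and in the interactions was not tested. The NV libraries still entered the estimate of spread that all groups shared. In Chiifu 17 members had higher levels at V20 than at V1 and 35 had lower ones (edgeR quasi-likelihood test, adjusted p below 0.05). Calls were common at this step, with 33.2% of the 28712 rows tested called, 17.5% higher and 15.7% lower. The members' shares were 12.9% and 26.5%, and their median log2 change was -0.18 against 0.00 over all rows. The 52 calls became 83 with limma voom, which called 48.6% of all rows. They became 75 with Chiifu NV left out of the fit and 82 with the spread from Chiifu V1 and V20 only. For these fits no share of all rows was taken. In LP08 31 members were higher and 21 lower, 23.5% and 15.9% of them, beside 16.8% and 17.5% of all rows and 34.3% in either direction. Their median change in LP08 was 0.14, against 0.00 over all rows.

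Over both cultivars, 12 members were higher at V20 in both (9.09%, beside 9.53% of all rows tested), 16 lower in both (12.1%, beside 9.89%) and 57 called in neither (43.2%, beside 52.4%). A further 18 were called lower in Chiifu and not called in LP08, 13.6% beside 5.54% of all rows, and 18 were called higher in LP08 and not called in Chiifu, 13.6% beside 7.03%. The converse cases were 5 and 5, 3.79% each beside 7.69% and 7.31%. Bra025957, chosen after its values were seen, was called in opposite directions. It had 15.6, 12.8 and 12 CPM at V1 and 10.0, 10.5 and 8.56 CPM at V20 in Chiifu, and 8.26, 8.14 and 7.53 CPM at V1 and 12.6, 11.4 and 9.94 CPM at V20 in LP08. V1 and V20 did not overlap in either cultivar, and the changes were -0.48 in Chiifu (SE 0.19, adjusted p = 0.049 by edgeR) and 0.50 in LP08 (SE 0.19, adjusted p = 0.0413 by edgeR).

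Among the genes that rose from V1 to V20, Bra026487 and Bra015335 had the largest change in Chiifu and Bra026487 and Bra034596 in LP08. Bra026487 had 10.2, 7.30 and 7.01 CPM at V1 and 23.6, 32.0 and 32.5 CPM at V20 in Chiifu, and 9.21, 4.43 and 5.62 CPM and then 36.3, 28.3 and 19.8 CPM in LP08. It gained 1.85 on the log2 scale in Chiifu (SE 0.32, adjusted p = 7.54e-05 by edgeR) and 2.13 in LP08 (SE 0.32, adjusted p = 1.56e-05 by edgeR), without overlap in either. Only 1 count of it was found in the 3 Chiifu NV libraries together, so its ratio to NV there has wide limits, 478-fold at V1 with a 95% counting interval of 85.4 to 18906. At V40T10 Chiifu had 0.272, 0.289 and 0.608 CPM of Bra026487, above the 0.0479, 0 and 0 CPM of NV without overlap. The added 1 CPM kept its R there within the limits.

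Bra015335 had 38.2, 38.2 and 36.1 CPM at V1, 127, 114 and 105 CPM at V20 and 130.0, 129.8 and 123 CPM at V40 in Chiifu. In LP08 it had 46.5, 45.3 and 39.6 CPM, then 130.2, 139.7 and 143 CPM, then 143, 114 and 118 CPM. It rose by 1.62 (SE 0.13, adjusted p = 3.92e-09 by edgeR) and 1.65 (SE 0.14, adjusted p = 2.18e-09 by edgeR) on the log2 scale, and its V20 and V40 libraries overlapped in both cultivars. Bra034596 had 5.02, 5.95 and 5.43 CPM at V1 and 26.0, 22.5 and 23.1 CPM at V20 in LP08, a gain of 2.12 (SE 0.29, adjusted p = 4.57e-06 by edgeR), and 7.76, 3.95 and 5.32 CPM and then 14.3, 13.1 and 10.7 CPM in Chiifu, a gain of 1.16 (SE 0.29, adjusted p = 0.00286 by edgeR).

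**Figure D4:**
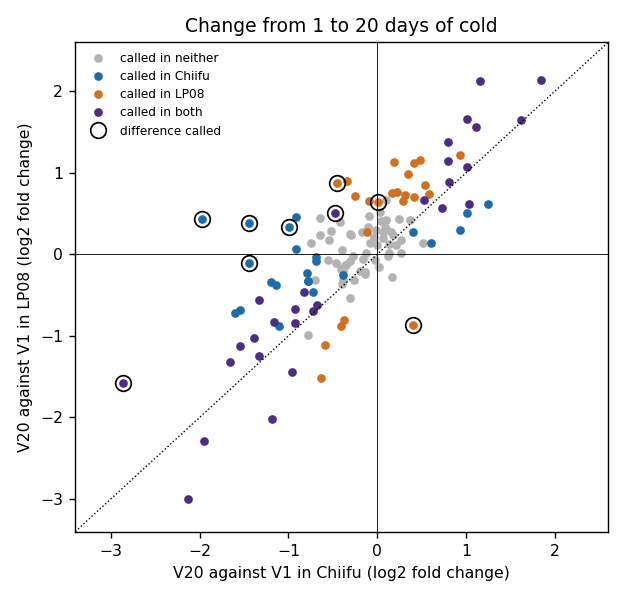
The log2 fold change from V1 to V20 in Chiifu (x axis) is plotted against that in LP08 (y axis) for the 132 genes, coloured by the cultivar in which it was called, with rings around the 9 genes whose change differed between cultivars and the dotted line marking equal change. More points lie above the line (100) than below it, and 8 of the 9 ringed genes lie above it.

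Whether the cultivars differed in this step was tested by the interaction of cultivar and time. The change was more positive in LP08 than in Chiifu in 100 of 132 members, 75.8% beside 46.9% of all rows tested, with a median difference of 0.27 on the log2 scale against -0.04 over all rows tested. Of these, 8 passed at an adjusted p below 0.05 and 1 passed in the other direction, 6.06% and 0.758% of members, beside 2.07% and 2.75% of all rows and 4.82% in either direction (edgeR quasi-likelihood test). At an unadjusted p below 0.05 there were 35 members, 26.5% beside 17.7% of all rows. The count of 9 was 3 without the first LP08 V20 library, 4 without the first Chiifu V1 library, and 5 without the second or the third Chiifu V20, the first or the second LP08 V1 or the second LP08 V20 library. It was 14 with DESeq2 and 26 with limma voom, which called 7.1% and 11.1% of all rows. It was 19 without Chiifu NV or with the spread from the compared groups only, for which no share of all rows was taken.

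Bra004593 had the largest difference. In Chiifu it had 9.53, 9.16 and 11.5 CPM at V1 and 2.26, 2.01 and 3.38 CPM at V20, and in LP08 2.07, 5.27 and 3.81 CPM and then 7.64, 4.74 and 2.75 CPM. The Chiifu groups did not overlap and fell, and the LP08 groups did overlap. The difference was 2.41 on the log2 scale (SE 0.47, adjusted p = 0.00327 by edgeR).

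Bra017619 had 19.6, 14.2 and 16.2 CPM at V1 and 8.44, 6.26 and 3.8 CPM at V20 in Chiifu, and 19.6, 30 and 21.8 CPM and then 35.1, 36.9 and 21.2 CPM in LP08. It fell without overlap in Chiifu, by 1.45 on the log2 scale (SE 0.34, adjusted p = 0.00236 by edgeR), and its LP08 groups overlapped. The difference was 1.83 (SE 0.47, adjusted p = 0.0263 by edgeR), and it lost its call without any of 7 of the 12 libraries compared, with edgeR adjusted p of 0.0594 to 0.0747.

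Bra033928 and Bra035742 also differed between cultivars at this step, by 1.28 (SE 0.31, adjusted p = 0.0159 by edgeR) and 1.33 (SE 0.34, adjusted p = 0.0211 by edgeR). The opposite case was Bra002674, at 6.76, 6.08 and 7.40 CPM at V1 and 8.44, 8.35 and 10.1 CPM at V20 in Chiifu and at 14.9, 15.6 and 19.1 CPM and then 8.6, 10.7 and 7.92 CPM in LP08. Its LP08 groups fell without overlap, and the difference was -1.28 (SE 0.36, adjusted p = 0.0396 by edgeR). That call was lost with the replicate number as a block (adjusted p = 0.0537 by edgeR) and without 11 of the 12 libraries in turn (0.0527 to 0.101).

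Between 20 and 40 days of cold few members changed in Chiifu. By edgeR 1 was higher and none lower, beside 0.261% of all rows called in either direction, and 12 members had an unadjusted p below 0.05, 9.09% beside 9.58% of all rows. DESeq2 called 2 and limma voom 10, 1.52% and 7.58% beside 1.26% and 6.21%. The median change was -0.04. Bra013892, the gene called, had 13.4, 11.5 and 8.90 CPM at V20 and 22.6, 24.3 and 24.4 CPM at V40, without overlap and close to the 26.1, 26.7 and 24.8 CPM of V1. The change of 1.08 on the log2 scale (SE 0.23, adjusted p = 0.0464 by edgeR) did not pass without any of the 6 libraries compared (0.0717 to 0.236) or with the replicate block (0.0517). In LP08 its V20 and V40 libraries overlapped.

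In LP08 8 members fell over the same interval and 124 did not pass. The fitted change was above 0 in 9 members, 6.82% beside 48.9% of all rows tested, with a median of -0.31 on the log2 scale against 0.00 over all rows tested. None was called higher, and the 8 lower were 6.06% of members beside 0.926% of all rows lower, 1.12% higher and 2.05% in either direction, and 48 members, 36.4% beside 13.3% of all rows, had an unadjusted p below 0.05 (edgeR). The 8 were Bra007479, Bra009464, Bra020709, Bra027808, Bra029734, Bra033928, Bra035742 and Bra039946. The count ranged from 2, without the third V40 library, to 15, without the third V20 library, and it was 3 and 5 without the second V20 and second V40 library. It was 22 with limma voom and 18 with DESeq2, 16.7% and 13.6% beside 4.30% and 3.78% of all rows. Without Chiifu NV it was 22, and when LP08 V20 and V40 alone set the spread it was 3. For these fits no share of all rows was taken.

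Bra035742 had 28.2, 23.8 and 15.7 CPM at V20 and 8.98, 10.3 and 8.55 CPM at V40 in LP08, a change of -1.28 (SE 0.24, adjusted p = 0.005 by edgeR), and 7.38, 7.28 and 7.42 CPM and then 6.12, 4.50 and 5.23 CPM in Chiifu. Its V20 and V40 libraries did not overlap in either cultivar, but the Chiifu change of -0.48 did not pass (SE 0.25, adjusted p = 0.558 by edgeR). Bra009464 had 18.7, 10.1 and 5.79 CPM at V20 and 4.56, 1.67 and 3.05 CPM at V40 in LP08, a change of -1.89 (SE 0.41, adjusted p = 0.0125 by edgeR). That call was lost when the compared groups alone set the spread (adjusted p = 0.0997 by edgeR) and without the first V20, the second V40 or the third V40 library (0.111, 0.0659 and 0.0644). In Chiifu Bra009464 had 9.29, 10.4 and 10.4 CPM and then 11.1, 12.9 and 15.5 CPM.

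No single member was shown by edgeR to differ between the cultivars at this step. The interaction for V40 against V20 gave 0 calls by edgeR, beside 0.143% of all rows (0.0731% higher and 0.0697% lower), with 25 members at an unadjusted p below 0.05, 18.9% beside 7.41% of all rows. DESeq2 called 4 and limma voom 7, 3.03% and 5.30% beside 0.435% and 0.798%. The difference was above 0 in 17 members, 12.9% beside 49.3% of all rows, with a median of -0.29 on the log2 scale against -0.00 over all rows tested. With the Chiifu NV libraries left out of the fit, edgeR called 6 members, and no share of all rows was taken for that fit.

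The cultivars were then compared at each treatment, a contrast that the rule does not make, although it used the levels compared. Each R was taken against NV, so a low NV mean made a gene easier to choose. How far this shaped the difference at NV, with the wide spread of Chiifu NV, was not tested. Before cold, 44 members were higher and 20 lower in LP08 than in Chiifu, 33.3% and 15.2%, beside 20.8% and 24.3% of all rows and 45% in either direction (edgeR, adjusted p below 0.05). The median difference was 0.35 on the log2 scale against -0.02 over all rows. This count rests on Chiifu NV, whose libraries stood apart. When NV libraries alone set the spread it was 23 (18 higher and 5 lower), and with limma voom 19. The share of members was 14.4% with limma voom, beside 19.4% of all rows, and 53% with DESeq2, beside 46.7%. For the fit on NV libraries alone no share of all rows was taken.

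In the cold the balance moved. At V1 16 members were higher and 35 lower in LP08, 12.1% and 26.5%, beside 21.7% and 21.4% of all rows and 43.1% in either direction. At V20 32 were higher and 20 lower, 24.2% and 15.2%, beside 19.9%, 21.9% and 41.8%. At V40 12 were higher and 38 lower, 9.09% and 28.8%, beside 20.1%, 22.2% and 42.3%. By edgeR the share of members called was below that of all rows at each cold time. With limma voom it was 50.8, 56.8 and 53% at V1, V20 and V40, beside 51.6, 54.2 and 51.4% of all rows. With DESeq2 it was 42.4, 45.5 and 41.7%, beside 45.1, 44.1 and 44.4%. Lower calls by edgeR outnumbered higher ones at V1 and V40 but not at V20. The median differences were -0.07, 0.14 and -0.18 on the log2 scale.

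After 10 days of warmth 37 members were higher and 35 lower in LP08, 28% and 26.5%, beside 26.9%, 31.8% and 58.7% of all rows, with a median difference of -0.01. Over the 5 treatments 24 members were called at none, 18.2% beside 16.1% of all rows. LP08 was lower at all 5 in 11 members and higher at all 5 in 3, 8.33% and 2.27% beside 9.85% and 6.68%. At both NV and V40T10 29 members were higher in LP08 and 15 lower, 22% and 11.4% beside 13.6% and 16.5%, and the rule, which holds V40T10 near NV in both cultivars, ties these differences to each other. In 15 members the calls went in both directions, 11.4% beside 9.71%. Higher in warmth and lower in the cold in LP08 were 11, 8.33% beside 3.30%, and the reverse held for 3, 2.27% beside 5.62%.

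**Figure D5:**
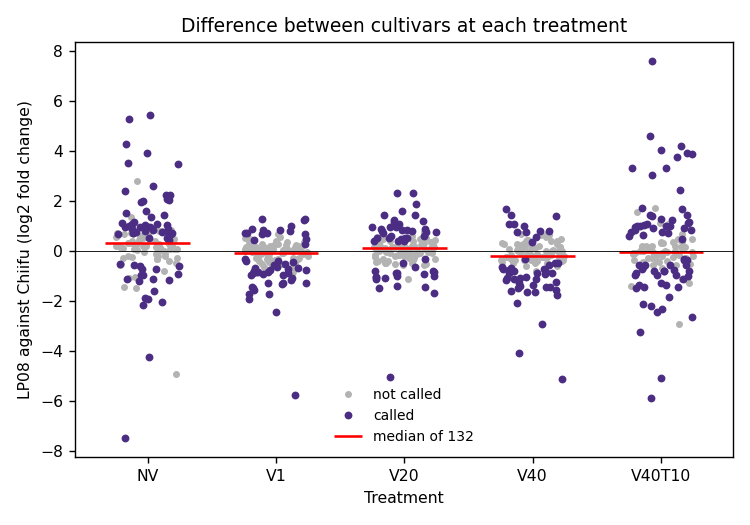
The log2 fold change of LP08 against Chiifu (y axis) is plotted for each of the 132 genes at each treatment (x axis), with called genes dark, the others grey and a red line at the median of all 132. The medians are 0.35, -0.07, 0.14, -0.18 and -0.01 from NV to V40T10, the points spread more widely in the warm treatments than in the cold ones, and Bra008697 is the lowest point at all 5.

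Bra008697 was raised in the cold in both cultivars from very unequal levels. In Chiifu it had 31.5, 50.4 and 46.2 CPM at NV, 115, 109.7 and 105 CPM at V1, 152, 139.7 and 147 CPM at V20, 139.6, 165 and 135 CPM at V40 and 48.8, 57.9 and 45.4 CPM at V40T10. The LP08 libraries held 0.105, 0.262 and 0.344 CPM at NV, 2.36, 1.85 and 1.91 CPM at V1, 4.82, 4.98 and 3.48 CPM at V20, 3.22, 6.36 and 3.30 CPM at V40 and 0.79, 1.05 and 0.759 CPM at V40T10. The highest LP08 library was below the lowest Chiifu library, and R was 1.30 to 2.13 in the cold in LP08 and 1.34 to 1.75 in Chiifu. R holds the LP08 values down by its added 1 CPM: the plain ratios of mean CPM to NV after 1, 20 and 40 days were 8.6, 18.7 and 18.1 in LP08 and 2.58, 3.42 and 3.42 in Chiifu. At V40T10 the plain ratio was 3.65 in LP08 and 1.19 in Chiifu, so without the added 1 CPM the LP08 level was not close to NV. The difference of LP08 from Chiifu ran from -7.45 at NV (SE 0.31, adjusted p = 2.04e-15 by edgeR) to -5.04 at V20 (SE 0.24, adjusted p = 1.16e-14 by edgeR). The genome to which the reads were aligned is not given in the sources used here, and whether its match to LP08 sequence affects such counts was not tested.

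Bra032539 was the reverse, higher in LP08 at every treatment. It had 1.73, 3.59 and 4.18 CPM at NV and 15.3, 13.9 and 14.5 CPM at V1 in Chiifu, and 12.2, 12.9 and 13.0 CPM at NV and 34.0, 36.7 and 37.8 CPM at V1 in LP08. The cultivars did not overlap at either treatment, and the difference was 2.01 at NV (SE 0.22, adjusted p = 3.41e-08 by edgeR) and 1.31 at V1 (SE 0.19, adjusted p = 5.20e-06 by edgeR).

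Bra016197 changed places between warmth and cold. In Chiifu it had 0.192, 0.276 and 0 CPM at NV, 76.3, 64.2 and 81.1 CPM at V1, 48.3, 50.7 and 38.3 CPM at V20, 42.2, 37.2 and 39.9 CPM at V40 and 0.0454, 0 and 0 CPM at V40T10. In LP08 it had 4.29, 2.89 and 3.05 CPM at NV, 20.3, 31.1 and 16.6 CPM at V1, 31.9, 20.4 and 14.4 CPM at V20, 19.0, 11.7 and 15.0 CPM at V40 and 3.95, 3.97 and 2.94 CPM at V40T10. LP08 was above Chiifu in all libraries from warmth and below it in all libraries from cold.

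The difference for Bra016197 was 4.28 on the log2 scale at NV (SE 0.48, adjusted p = 6.93e-08 by edgeR) and -1.70 at V1 (SE 0.27, adjusted p = 1.11e-05 by edgeR), and it stayed negative at V20 (-1.04) and V40 (-1.38). At V40T10 the groups held 180 counts in LP08 and 1 in Chiifu, a ratio of 283 (95% counting interval 50.1 to 11232), and that 1 count was in the first Chiifu library. Its R in the cold was accordingly 5.14 to 6.02 in Chiifu and 1.88 to 2.43 in LP08.

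Bra038832 showed a smaller form of this at rest only. At NV it had 0.192, 0.368 and 0.253 CPM in Chiifu and 1.52, 1.52 and 1.38 CPM in LP08, and at V40T10 0.227, 0 and 0.076 CPM against 1.76, 3.69 and 1.72 CPM. The cultivars did not overlap in warmth, with a difference of 2.40 at NV (SE 0.43, adjusted p = 6.92e-05 by edgeR) and 4.63 at V40T10 (SE 0.47, adjusted p = 7.99e-09 by edgeR), the latter 5.85 without the first Chiifu V40T10 library and 3.96 without the second. In the cold it stood at 73.8 to 114 CPM in Chiifu and 50.6 to 124 CPM in LP08, and no cultivar difference passed there.

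Bra008661, the gene with the highest R, was lower in LP08 as the cold went on. Its difference was -0.81 at V1 (SE 0.41, adjusted p = 0.122 by edgeR), which did not pass although the libraries did not overlap. It was -1.68 at V20 (SE 0.42, adjusted p = 0.00264 by edgeR; -2.44 without the second LP08 library) and -4.06 at V40 (SE 0.47, adjusted p = 2.04e-07 by edgeR). At NV, LP08 with 0 counts was at least 3.34-fold lower than Chiifu with 10, against a floor of 3 counts over the group, and this difference did not pass (adjusted p = 0.106 by edgeR).

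Bra017619 and Bra004991 had no count in any Chiifu NV library and 13 and 15 counts in LP08 NV, at least 4.32-fold and 4.99-fold higher against the same floor. Both calls at NV were lost with limma voom (adjusted p = 0.601 and 0.374) and when NV libraries alone set the spread (adjusted p = 0.0544 by edgeR and 0.0509), and that of Bra017619 also without any Chiifu NV library or the third LP08 NV library (0.0510 to 0.0648). In the cold the differences rested on more counts. Bra017619 had 8.44, 6.26 and 3.8 CPM in Chiifu V20 against 35.1, 36.9 and 21.2 CPM in LP08, a difference of 2.34 (SE 0.35, adjusted p = 1.07e-05 by edgeR).

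Bra011484 was lower in LP08 at all 5 treatments, at 13.9, 11.7 and 11 CPM in Chiifu V1 against 2.30, 2.41 and 2.05 CPM in LP08 V1, a difference of -2.43 without overlap (SE 0.29, adjusted p = 2.76e-07 by edgeR). At V40T10 it had no count in LP08 and 15 in Chiifu, at least 3.18-fold lower against the floor. Bra009464 was lower in LP08 at both warm treatments, with 1.2, 3.18 and 1.71 CPM against 0.105, 0.157 and 0.0492 CPM at NV, a difference of -4.24 (SE 0.74, adjusted p = 4.47e-05 by edgeR; limma voom adjusted p = 0.0889). At V1 the cultivars overlapped in Bra009464, and at V40 LP08 was again lower, by -2.08 on the log2 scale (SE 0.41, adjusted p = 0.000173 by edgeR).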

How the data were processed

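The authors deposited whole-number counts of reads per gene, not normalized, for 30 libraries. Per the labels' protocols these were stranded mRNA libraries, and per the submitters' processing notes FastQC, TopHat2, HTSeq and edgeR were used. Not given in the sources used here are versions, genome build, annotation and strand setting, so near-identical copies, overlapping genes and antisense genes are uncertain. The 5 summary rows were left out (no gene 6.91 to 11.6% of alignments, several places 2.67 to 7.29%, ambiguous at most 0.0591%).

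Members and lists were chosen with earlier results of these data known. R used CPM scaled by TMM on Bra rows (factors 0.827 to 1.21). Tests used edgeR 4.0.16 in R 4.3.3: filterByExpr left 28712 of 42186 rows, all 132 members among them; TMM factors of those rows; 1 mean per group over all 30 libraries; quasi-likelihood F test; Benjamini-Hochberg adjustment within each of 11 comparisons; threshold 0.05. The code was tested on simulated data. Counting intervals and floors cover counting error only, since PCR copies are no independent molecules.

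Genes named were the 6 with the highest lowest cold R, the 4 with the highest mean cold level, for each comparison and direction the 2 largest called changes (without overlap of libraries, except for interactions), and those at the thresholds; all 8 called from V20 to V40 in LP08, Bra008912, Bra025957 and pairs of close IDs were added after their values were seen. No library duplicated another (chi-square per degree of freedom 7.01 or more between libraries of a group). Alternatives were RLE factors, DESeq2 1.42.0, limma 3.58.1 voom weighted per group, no filter, spread from the compared groups, a replicate block, no Chiifu NV, and each library left out; for the set, other pseudocounts, scalings and medians. Names were sought in a RefSeq gene table of 51589 rows for assembly CAAS_Brap_v3.01, which matched 1 of 42186 IDs and no member.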

Additional observations from a re-analysis of the deposited data

Results flagged for a closer look

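The change from 1 to 20 days of cold differed between the cultivars in 9 members by an interaction test (edgeR quasi-likelihood, adjusted p below 0.05). These were Bra002674, Bra004593, Bra011484, Bra017619, Bra025957, Bra026143, Bra033928, Bra035742 and Bra037755. The largest differences, on the log2 scale and as LP08 minus Chiifu, were 2.41 for Bra004593 and 1.83 for Bra017619, and the only negative difference that passed was -1.28 for Bra002674. Bra026143 and Bra037755, named for the count, had differences of 1.33 and 0.64 (edgeR adjusted p = 0.0182 and 0.0116). The count of 9 was as low as 3 without the first LP08 V20 library and as high as 26 with limma voom.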

How the results depend on the processing

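Against edgeR with all groups, DESeq2 called 2 (main 1) from V20 to V40 in Chiifu, 18 (8) in LP08, and 14 (9) and 4 (0) for the cultivar difference at the earlier and later step. In the same order the fit without Chiifu NV gave 2, 22, 19 and 6, limma voom 10, 22, 26 and 7, and a spread from the compared groups only 5, 3, 19 and 2. These last 2 also gave 83 and 82 (52) from V1 to V20 in Chiifu, and 19 and 23 (64) for the cultivars at NV. With RLE factors or no filter every count stayed within 1.5 times. Among the alternatives in this section, shares of all rows were taken for DESeq2 and limma voom only. The other counts cannot be read as a result about the members.

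Without 1 library at a time the counts were 42 to 45 and 42 to 48 from V1 to V20 in Chiifu and LP08, 0 (in each of 6) and 2 to 15 from V20 to V40, and 3 to 8 and 0 to 3 for the differences in these steps. They were 56 to 68, 43 to 44, 40 to 48, 45 to 51 and 63 to 67 for the cultivars at NV, V1, V20, V40 and V40T10. The difference at the earlier step was 3 without the first LP08 V20 library, 4 without the first Chiifu V1, and 5 without the second or the third Chiifu V20, the first or second LP08 V1 or the second LP08 V20. At the later step it was 3 without the third LP08 V20 library.

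Libraries of the same number in a cultivar showed no general shared deviation (median r -0.01 over 60 pairs, 17 above 0.1, the highest 0.41). They were treated as unpaired, although this check cannot exclude a pairing with a small effect. With the replicate block the counts were 52, 50, 0 and 9 for the steps in Chiifu and LP08, 62, 51, 53, 50 and 71 for the cultivars, and 8 and 0 for the differences.

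The thresholds were met by 131 to 146 rows under other scalings, 133 and 116 with pseudocounts of 0.5 and 2 CPM, 134 with medians and 108 to 147 without 1 library. Of the 132 members 96 to 127, 106 and 99, 106 and 104 to 132 were kept, and 71 in all 30 sets without 1 library. Of the values of named genes, 191 of 222 kept direction and call without 1 library and 226 of 234 under other alternatives; the others lost the call, and none reversed. Causes were not tested. Below 1 CPM counting error limits folds.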
